A study of Homo sapiens with 20 samples.

Results

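Osteomodulin (OMD), decorin (DCN), lumican (LUM), biglycan (BGN), fibromodulin (FMOD), osteoglycin (OGN), asporin (ASPN), PRELP and versican (VCAN) are 9 genes of matrix proteins that carry sugar chains or belong to families that do. They were followed through every probe whose RefSeq accession maps to their symbols, which gave 12 of the 42405 probes on the array, in HepaRG cells. HepaRG, the 1 line behind all samples, came from a human hepatoma, and its progenitor-like cells can become cells resembling hepatocytes or bile duct epithelium. Cy3-labelled RNA was hybridised to 20 one-color Agilent arrays, 4 per condition from independent cultures. D4 cells were proliferating progenitors and D15 cells were confluent and committed, both without DMSO. D30 − DMSO cells stayed without DMSO and D30 + DMSO cells received 2% DMSO from day 15 to day 30. D34 ± DMSO cells were D30 + DMSO cells kept for 4 further days after DMSO was removed. All conditions shared a medium with serum, insulin and hydrocortisone.

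Small leucine-rich proteoglycans are secreted proteins built of leucine-rich repeats, most of which bind fibrillar collagens and set the spacing and width of the fibrils. Decorin, biglycan and asporin form one class, fibromodulin, lumican, PRELP and osteomodulin another, and osteoglycin belongs to yet another. Versican is a large proteoglycan of a different family that binds hyaluronan. In liver these proteins are known mainly as products of stellate cells, portal fibroblasts and myofibroblasts, and they accumulate in fibrotic tissue.

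Intensities were scaled so that the 75th percentile of all arrays was 371. The scanner software decides whether a probe stood well above background. A gene was tested when 1 of its probes did so on every array of some condition, which left 22221 genes. Between conditions a gene counted as called when limma gave an adjusted p (Benjamini-Hochberg) under 0.005 and the fold change exceeded 2. Over the 5 conditions together the rule was limma's F-test with a Bonferroni p under 0.001 and a range of condition means over 3-fold. The percentage of spots well above background was between 61.1 and 74.2 per array.

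Of the 9 genes, 4 could be tested, OMD, DCN, LUM and VCAN. BGN exceeded background clearly on 13 arrays and FMOD on 11, but in no condition on all 4. For ASPN the better of the 2 probes was above background on 9 arrays. Both OGN probes and the PRELP probe were above background on 0 of 20 arrays, so for these genes there is only an upper bound. Over the 5 conditions 3 of the 4 genes tested were called, OMD, DCN and LUM, where 5.31% of all genes tested were called. The number was 2 when replicate 4 of D4 or any single D30 + DMSO array was left out, without the filter on dim probes, with a filter requiring all 20 arrays above background, and with the methods' own test.

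**Figure D1:**
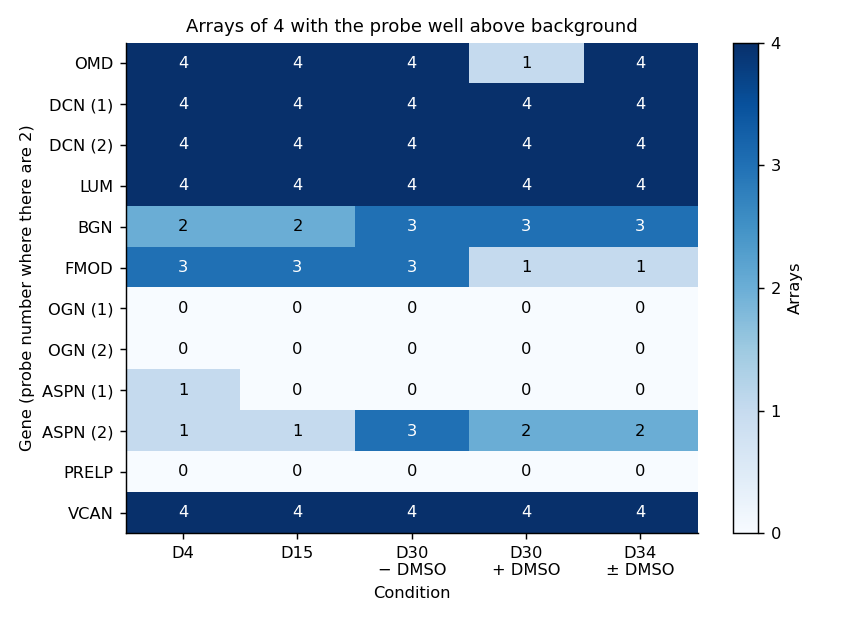
Number of arrays, out of 4 per condition, on which each of the 12 probes was well above background (rows, probes; columns, conditions). DCN, LUM and VCAN were above background on all arrays, OMD on all arrays except 3 of the D30 + DMSO arrays, and OGN and PRELP on none.

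OMD encodes osteomodulin, also called osteoadherin, a keratan sulfate proteoglycan best known from mineralised matrix. Its intensity was 75.9, 247, 110 and 195 on the D4 arrays and 275, 343, 339 and 344 on the D15 arrays. In D30 − DMSO cells it was 279, 305, 323 and 611. In D30 + DMSO cells it was 6.31, 12.0, 10.2 and 4.05, and only replicate 2 of these was well above background. At D34 ± DMSO it was 114, 103, 126 and 224. The D30 + DMSO arrays lay below every other array, and the D34 ± DMSO arrays lay above all of them and below all D30 − DMSO and D15 arrays, inside the range of D4.

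DCN encodes decorin, which carries chondroitin or dermatan sulfate and binds collagen and TGF-beta. Its intensity was 5696, 11333, 5943 and 9199 at D4 and 3175, 4748, 5368 and 2798 at D15. In D30 − DMSO cells it was 2687, 3626, 3458 and 6952, and in D30 + DMSO cells it was 328, 653, 582 and 483. At D34 ± DMSO it was 2552, 3517, 3849 and 6946. All D30 + DMSO arrays were far below all others, and the D15, D30 − DMSO and D34 ± DMSO arrays overlapped. A second DCN probe, for another transcript variant, was above background on all 20 arrays and gave parallel values, from 26.8 to 63.6 with DMSO and from 256 to 752 without it at day 30.

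LUM encodes lumican, a keratan sulfate proteoglycan of collagen-rich stroma such as the cornea. Its intensity was 3362, 6357, 4286 and 5053 at D4 and 685, 1158, 1369 and 722 at D15. It was 675, 750, 780 and 823 in D30 − DMSO cells, and 95.4, 143, 149 and 94.2 in D30 + DMSO cells. At D34 ± DMSO it was 570, 571, 805 and 654. The D4 arrays were above all others, D15, D30 − DMSO and D34 ± DMSO overlapped, and the D30 + DMSO arrays were below all others.

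VCAN encodes versican. Its intensity was 205, 121, 129 and 234 at D4 and 71.0, 74.9, 71.9 and 53.9 at D15. It was 44.7, 53.0, 53.7 and 55.0 in D30 − DMSO cells and 39.1, 41.8, 30.8 and 45.6 in D30 + DMSO cells. At D34 ± DMSO it was 58.3, 657, 54.4 and 137. The D4 arrays lay above those of D15 and both D30 conditions, and D30 − DMSO and D30 + DMSO overlapped. Replicate 2 of D34 ± DMSO stood apart, and its value rests on 2 spots that differed 9.68-fold, with unscaled intensities of 1438 and 148, neither of them marked as an outlier. On the other 19 arrays the spots of this probe differed at most 1.45-fold.

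**Figure D2:**
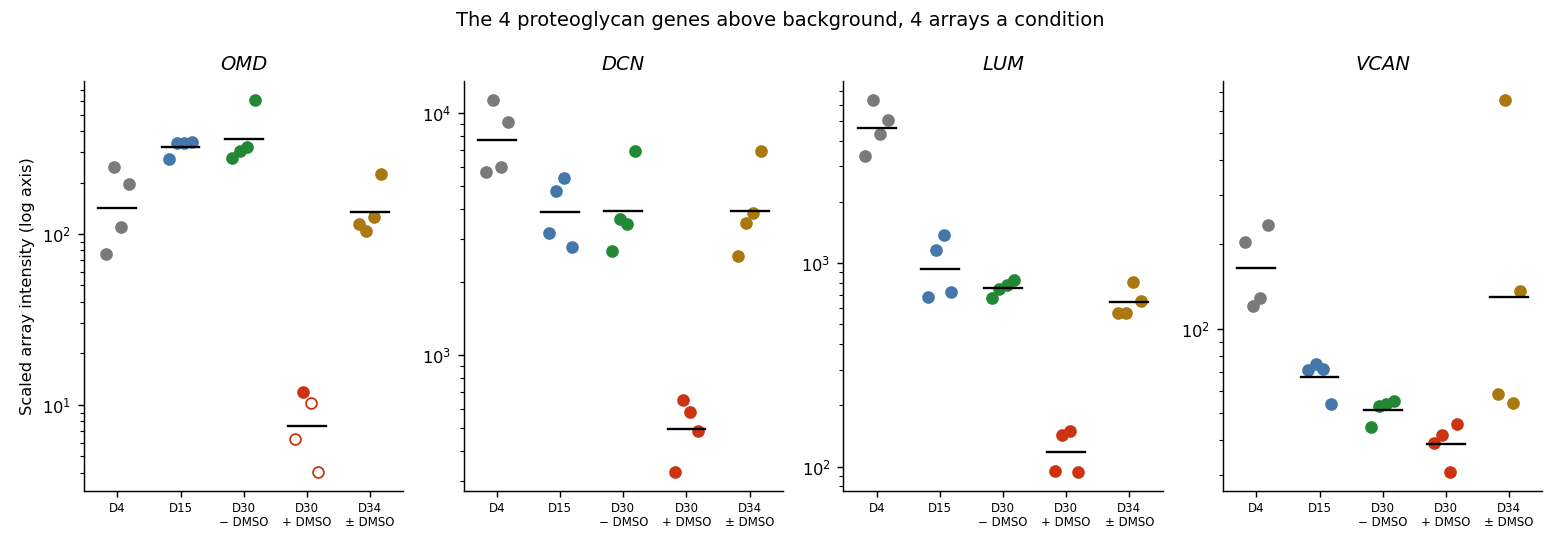
Scaled intensity (log axis, a separate range for each gene) of OMD, DCN, LUM and VCAN on each of the 4 arrays per condition. Filled points are well above background, open points are not, and bars are means of log values. The D30 + DMSO points of OMD, DCN and LUM lie below all others, whereas those of VCAN lie next to D30 − DMSO.

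From D4 to D15, when progenitors reach confluence and commit, LUM fell 4.93-fold (log2 fold change -2.30, SE 0.24, adjusted p = 6.44e-07 in limma). It was the 1 gene of the 4 called, where 9.51% of all genes tested were called, 5.69% higher and 3.82% lower. DCN had a log2 fold change of -0.99 (SE 0.34, adjusted p = 0.0434) and VCAN had a log2 fold change of -1.29 (SE 0.52, adjusted p = 0.083), neither of which passed. OMD had a log2 fold change of 1.20 (SE 0.38, adjusted p = 0.0274), also not past the threshold. VCAN passed (adjusted p = 0.00135) without replicate 2 of D34 ± DMSO, an array outside this comparison that enters only the estimate of spread, and with the lower of its spots (adjusted p = 0.00176).

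The differences between genes in this step were tested directly with exact two-sided permutation tests on the differences of log2 values over 4 against 4 arrays, in a family of 24 comparisons in which the smallest exact p possible was 0.0286, or 0.049 after Benjamini-Hochberg adjustment. Arrays were exchanged across slides, although deviations from the condition means correlated between arrays of the same slide (44 pairs of different conditions, median r = 0.38, lowest 0.11) and less so between slides (median r = -0.17), so these p-values leave out the slide. The change of OMD exceeded that of LUM by 3.50 log2 units and that of DCN by 2.19 log2 units (exact p = 0.0286, adjusted p = 0.049 for both). The change of LUM was more negative than that of DCN by 1.31 log2 units (exact p = 0.0286, adjusted p = 0.049).

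From D15 to D30 − DMSO, 0 of the 4 genes were called by limma, and 0.0135% of all genes tested were. Log2 fold changes were 0.15 for OMD, 0.01 for DCN, -0.32 for LUM and -0.39 for VCAN, and at an unadjusted p below 0.05 the number was also 0. Their 95% intervals reached from -0.64 to 0.95 for OMD, from -0.71 to 0.73 for DCN and from -0.82 to 0.18 for LUM, so changes of more than 2-fold lay outside them. For VCAN the interval reached from -1.48 to 0.70 and included a fall of more than 2-fold.

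DMSO at day 30 was accompanied by lower OMD, DCN and LUM. OMD fell 48.2-fold against D30 − DMSO (log2 fold change -5.59, SE 0.38, adjusted p = 2.03e-08 in limma). DCN fell 7.90-fold (log2 fold change -2.98, SE 0.34, adjusted p = 5.98e-06), and its second probe gave a log2 fold change of -2.99 (adjusted p = 1.64e-05 with every probe tested). LUM fell 6.42-fold (log2 fold change -2.68, SE 0.24, adjusted p = 3.11e-07). These 3 of the 4 tested genes were called, all lower, where 5.88% of all genes tested were called, 1.73% higher and 4.14% lower. VCAN had a log2 fold change of -0.40 with a 95% interval from -1.49 to 0.69 (adjusted p = 0.709).

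The size of the OMD change depends on how its dim D30 + DMSO signal is treated: with a floor of 10 intensity units the log2 fold change was -5.10, and with normexp background correction, which adds an offset of 50, it was -2.38 (adjusted p = 6.02e-07). D30 + DMSO arrays lay on 2 of the 4 slides. Within these slides, numbered 3 and 4, the OMD difference to D30 − DMSO was -5.01 and -6.57 log2 units, that of DCN -2.54 and -3.71, and that of LUM -2.53 and -2.80.

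On the floored log2 values the change of OMD with DMSO was more negative than that of DCN by 2.61 log2 units and than that of LUM by 2.91 log2 units (exact p = 0.0286, adjusted p = 0.049 for both, exact permutation tests). These differences rest on OMD signals that were above background on 1 of 4 D30 + DMSO arrays, and they depend on the background correction. With normexp the log2 fold changes were -2.38 for OMD, -2.84 for DCN and -2.10 for LUM, so that the order of OMD and DCN was reversed. DCN and LUM differed by 0.30 log2 units, within the spread of the arrays (exact p = 0.4). The changes of both were more negative than that of VCAN, by 2.58 log2 units for DCN and 2.28 for LUM (exact p = 0.0286, adjusted p = 0.049 for both).

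Set against D15, from which both D30 cultures came, D30 + DMSO cells gave log2 fold changes of -5.44 for OMD, -2.97 for DCN and -3.00 for LUM (adjusted p = 1.84e-08, 5.49e-06 and 6.45e-08 in limma). These 3 genes were called, against 6.5% of all genes tested, 2.25% higher and 4.24% lower. VCAN had -0.79 (SE 0.52, adjusted p = 0.35). This comparison and the previous one share the D30 + DMSO arrays.

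After 4 days without DMSO the same 3 genes were called higher, where 7.05% of all genes tested were called, 5.07% higher and 1.98% lower. OMD rose 18.1-fold (log2 fold change 4.18, SE 0.38, adjusted p = 2.58e-07 in limma), and with the normexp correction its log2 fold change was 1.34. DCN rose 7.94-fold (2.99, SE 0.34, adjusted p = 4e-06) and LUM rose 5.47-fold (2.45, SE 0.24, adjusted p = 5.71e-07). VCAN had a log2 fold change of 1.74 (SE 0.52, adjusted p = 0.0215), which did not pass and was 0.96 without replicate 2 of D34 ± DMSO. Within slides 3 and 4 the log2 differences were 3.79 and 5.12 for OMD, 2.76 and 3.71 for DCN, and 2.54 and 2.46 for LUM.

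Against cells never given DMSO, D34 ± DMSO cells had 0 of the 4 genes called by limma, where 1.5% of all genes tested were called, and 2 at an unadjusted p below 0.05, OMD and VCAN. DCN differed by 0.01 log2 units with a 95% interval from -0.71 to 0.73, and LUM by -0.23 with an interval from -0.73 to 0.27. OMD was 2.66-fold lower than in D30 − DMSO cells (log2 fold change -1.41, SE 0.38, adjusted p = 0.038), which did not pass the threshold of 0.005, although all 4 D34 ± DMSO arrays lay below all 4 D30 − DMSO arrays. Relative to DCN, OMD was lower by 1.42 log2 units, and relative to LUM by 1.18 log2 units (exact p = 0.0286, adjusted p = 0.049 for both). Within slides 1, 3 and 4 the OMD difference was -1.64, -1.22 and -1.45 log2 units.

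**Figure D3:**
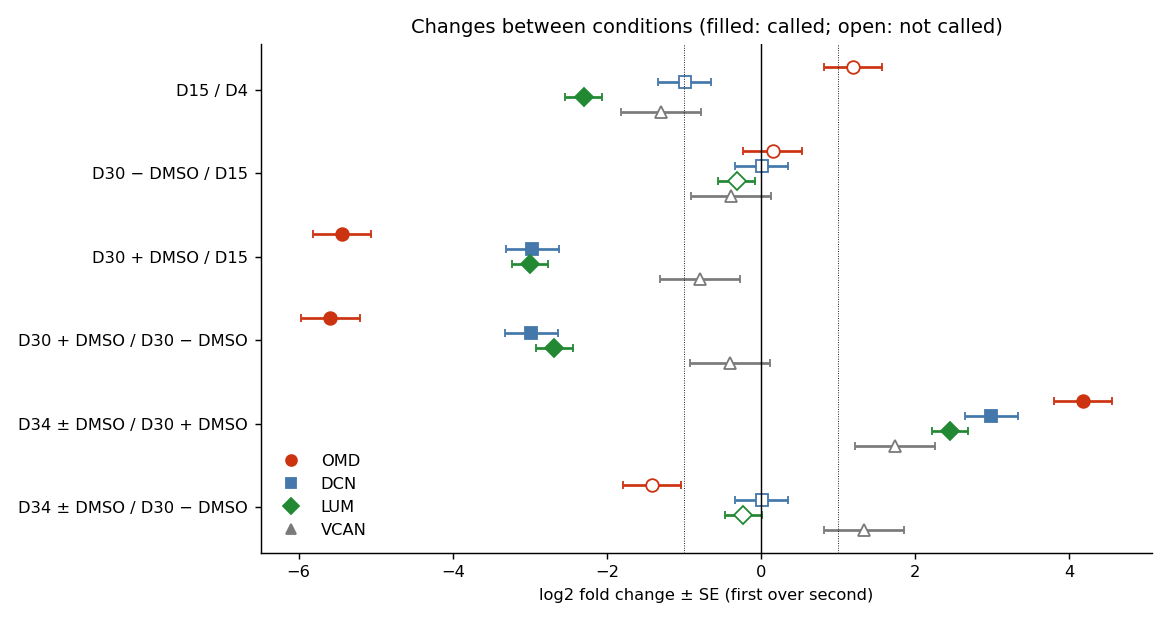
Log2 fold change ± SE of OMD, DCN, LUM and VCAN in the 6 comparisons (limma, n = 4 arrays per condition). Filled symbols were called, open symbols were not, and dotted lines mark a 2-fold change. OMD reached -5.59 with DMSO and 4.18 after its removal, DCN and LUM moved by 2.45 to 2.99 log2 units in these steps, and VCAN was not called in any of these 6 comparisons.

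Ordered by mean level, OMD ran from D30 − DMSO and D15, which did not differ beyond their spread, through D4 and D34 ± DMSO, which likewise did not (log2 difference -0.07, adjusted p = 0.927), down to D30 + DMSO. DCN was highest at D4, then at D34 ± DMSO, D30 − DMSO and D15, which did not differ beyond their spread, and lowest in D30 + DMSO. D4 and D34 ± DMSO differed in DCN by 0.97 log2 units without passing the threshold (adjusted p = 0.0469). LUM ran from D4 over D15, D30 − DMSO and D34 ± DMSO, of which the last 3 did not pass against each other, to D30 + DMSO. For VCAN the order was D4, D34 ± DMSO, D15, D30 − DMSO and D30 + DMSO, and no pair of neighbours passed. Its lowest and highest conditions did, with D30 + DMSO 4.25-fold below D4 (log2 fold change -2.09, SE 0.52, adjusted p = 0.00317 in limma).

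Replicate arrays of a condition also varied together in these genes. After subtraction of the condition means, log2 values over the 20 arrays correlated with r = 0.77 for OMD and DCN, 0.71 for DCN and LUM and 0.66 for OMD and LUM, whereas VCAN gave r between -0.19 and 0.11 with the other 3. The points share the arrays, their scaling and the slides. Replicate 4 of D30 − DMSO, for instance, was the highest of its condition for OMD, DCN, LUM and VCAN.

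The 5 dim genes gave little to compare. BGN, a relative of decorin that also acts on Toll-like receptors, had intensities from 9.35 to 16.0 at D4, 7.06 to 38.6 at D15, 9.96 to 29.6 in D30 − DMSO, 16.5 to 31.5 in D30 + DMSO and 7.70 to 27.3 in D34 ± DMSO cells, and only D4 and D30 + DMSO did not overlap. On the array reading 31.5 its spots differed 6.43-fold. FMOD, a collagen-binding relative of lumican measured by 10 spots per array, had 39.8, 17.1, 22.2 and 18.3 in D30 − DMSO cells and 19.6, 8.15, 7.84 and 2.90 in D30 + DMSO cells. Replicate 1 of D30 + DMSO lay inside the D30 − DMSO range, and in a fit without the background filter FMOD had a log2 fold change of -1.56 (SE 0.48, adjusted p = 0.0492 over 35372 genes), which is not a call. In the same fit BGN, ASPN, OGN and PRELP were not called in any of the 6 comparisons.

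The second ASPN probe, for a decorin relative with an aspartate-rich stretch, lay between -0.52 and 36.7 over all arrays. Its first probe read 68.0 on replicate 1 of D4, where its 2 spots read 201 and -7.28 before scaling, and at most 2.74 on all other arrays. OGN was between -5.59 and 8.09 over both probes and PRELP, which anchors basement membranes to connective tissue, between -5.00 and 2.08. Values at or below 0 are spots no brighter than the local background.

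Several of these genes lie in clusters left by old duplications, so their neighbours on the chromosome were examined as well. In RefSeq's order, OGN, OMD, ASPN and ECM2 follow each other on chromosome 9, FMOD, PRELP and OPTC on chromosome 1, and EPYC, KERA, LUM and DCN on chromosome 12. BGN is on chromosome X and VCAN on chromosome 5.

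On chromosome 12, 3 of the 4 cluster genes fell with DMSO and rose after its removal, DCN, LUM and EPYC, which encodes epiphycan, a proteoglycan of growth plate cartilage. EPYC had an intensity of 55.2, 317, 129 and 229 at D4, 56.7, 98.0, 92.5 and 62.2 at D15, and 28.2, 37.6, 34.4 and 9.86 in D30 − DMSO cells. It was not well above background on any D30 + DMSO array, where it read at most 0.52, and it read 15.4, 14.3, 16.7 and 10.3 at D34 ± DMSO. Against the lowest signal called above background on each array, EPYC was at least 11.1-fold lower in D30 + DMSO than in D15 cells (adjusted p = 2.21e-08 in limma). Folds given as at least, here and below, use that signal in place of dimmer values. They are not strict bounds, because some brighter probes were not flagged as above background. FMOD, for instance, read 24.3 unflagged on replicate 2 of D4, where the lowest flagged signal was 9.93. In D30 + DMSO cells EPYC was at least 3.61-fold lower than in D30 − DMSO cells (adjusted p = 7.94e-07 in limma), of whose arrays 3 were above background. After removal EPYC was at least 2.06-fold higher (adjusted p = 4.64e-06 in limma), with 2 of 4 arrays above background.

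Neither of the last 2 EPYC calls held with a floor of 10 or the normexp correction, while its call against D15 held under both. That comparison also spans the time from day 15 to day 30. Over this time without DMSO, EPYC had a log2 fold change of -1.62 (SE 0.44, adjusted p = 0.619 in limma). This was not called, although all D30 − DMSO arrays lay below all D15 arrays. DCN had 0.01 and LUM -0.32 in the same step. KERA, which encodes keratocan of the cornea, was above background on 0 of 20 arrays. BTG1, the next gene beyond DCN and not a matrix gene, rose from D4 to D15 (log2 fold change 1.56, adjusted p = 0.000368) and had 0.57 with DMSO, not called.

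On chromosome 9, OMD was called with DMSO and the 4 other tested genes were not. ECM2, an extracellular matrix protein with leucine-rich repeats, read 447, 390, 421 and 459 in D30 − DMSO and 276, 289, 253 and 252 in D30 + DMSO cells. The arrays did not overlap, but the log2 fold change of -0.68 (SE 0.19, adjusted p = 0.0165 in limma) did not pass, and after DMSO removal ECM2 had -0.03. CENPP, IPPK and NOL8, near the cluster when genes are ordered by start position only, had log2 fold changes between -0.39 and 0.16 with DMSO. On chromosome 1, OPTC was above background on 10 arrays but not on all 4 of a condition. CHI3L1, a chitinase-like secreted protein outside the proteoglycan cluster, rose with DMSO (log2 fold change 1.27, adjusted p = 0.00172), a call lost when any 1 of 5 arrays was left out. The flanking genes BTG2 and ATP2B4 had 0.22 and -0.81, neither called.

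**Figure D4:**
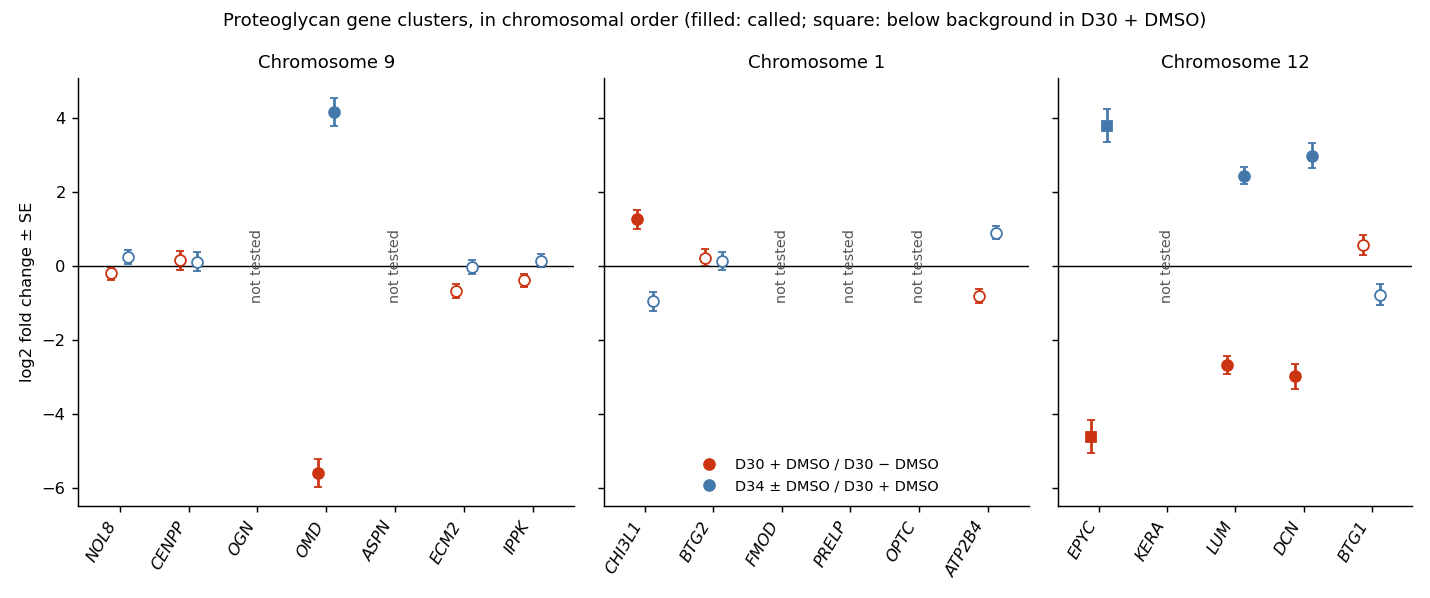
Log2 fold change ± SE for DMSO at day 30 (red) and for its removal (blue) along the 3 chromosomal neighbourhoods, genes in chromosomal order and not to scale. Filled symbols were called, and squares mark EPYC, whose D30 + DMSO arrays were all below background, so that its position depends on the floor. OMD was called and its tested neighbours were not, and EPYC, LUM and DCN were all called in both comparisons.

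Upstream sequence from RefSeq's promoter table (build GRCh38.p14) was available for 6 of the 9 genes, BGN, FMOD, OGN, ASPN, PRELP and VCAN, and for EPYC. OMD, DCN and LUM have no entry. For DMSO at day 30 and its removal, EPYC was called in the same directions as LUM and DCN, and VCAN was not called. The 250 bases before the start of EPYC and of VCAN are shown 5′ to 3′ on the strand of the gene. Both strands were searched for the TATA box letters TATAAA, the CCAAT box letters CCAAT, the GC box letters GGGCGG, the AP-1 site letters TGANTCA and the TEAD site letters CATTCC, and capitals mark the matches.
EPYC, chr12:91004973-91005222, minus strand: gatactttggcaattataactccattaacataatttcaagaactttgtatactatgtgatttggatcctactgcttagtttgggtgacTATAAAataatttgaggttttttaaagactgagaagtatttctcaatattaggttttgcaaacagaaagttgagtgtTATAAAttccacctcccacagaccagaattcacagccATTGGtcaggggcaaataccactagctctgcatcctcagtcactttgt
VCAN, chr5:83471494-83471743, plus strand: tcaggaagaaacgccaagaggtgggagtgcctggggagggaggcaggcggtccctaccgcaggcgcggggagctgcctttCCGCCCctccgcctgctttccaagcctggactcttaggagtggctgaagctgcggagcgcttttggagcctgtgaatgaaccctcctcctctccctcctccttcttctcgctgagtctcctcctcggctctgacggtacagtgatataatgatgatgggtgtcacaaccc

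The EPYC stretch held TATAAA at 162 and 85 bases before the start and CCAAT on the opposite strand from 48 bases before it. The VCAN stretch held a GC box on the opposite strand, from 170 bases before the start. Of 35116 RefSeq promoters cut to the same length, 3763 held a TATA box match, 32% a CCAAT box, 42.6% a GC box, 6.57% an AP-1 site and 11.9% a TEAD site. The EPYC stretch had 0 CpG dinucleotides and the VCAN stretch 12, against a median of 11 over all promoters.

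The genes whose profile over the 20 arrays was most like that of each called gene were listed by Pearson correlation, which here mostly follows the 5 condition means. For OMD these were SHISAL2B (r = 0.98), SYT13 (r = 0.96), a synaptotagmin of vesicle traffic, and LY6D (r = 0.96), a small membrane-anchored protein of epithelial and B cells. In D30 + DMSO cells SHISAL2B was above background on 0 of 4 arrays and OMD on 1, so their correlation rests in part on dim values. For DCN they were ANKRD28, S100A3 and ACTL8, each with r = 0.96. For LUM they were ANXA3 (r = 0.98), an annexin that binds membrane phospholipids, NFE2L3 (r = 0.98), a transcription factor of the NRF family, and ALOX5 (r = 0.98), the enzyme that starts leukotriene synthesis.

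Among 10 other genes of the leucine-rich repeat family, of which 7 were tested, EPYC fell and TSKU rose with DMSO, and both turned back after removal. TSKU encodes tsukushi, a secreted protein made by hepatocytes. Its intensity ranged from 7066 to 8337 in D30 − DMSO cells, from 19287 to 24930 in D30 + DMSO cells and from 6516 to 8901 in D34 ± DMSO cells. The log2 fold changes were 1.43 with DMSO (SE 0.18, adjusted p = 1.79e-05 in limma) and -1.53 after its removal (adjusted p = 5.65e-06), opposite in direction to OMD, DCN and LUM. The median log2 fold change of the 7 genes with DMSO was 0.12, beside 0.04 over all genes tested.

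Decorin and versican carry chondroitin or dermatan sulfate, and 16 genes that build, sulfate or epimerise these chains were all measurable. With DMSO 5 of the 16 were called, all lower, where 4.14% of all genes tested were called lower. After removal the same 5 were called, all higher, where 5.07% of all genes tested were called higher. CHST15, a sulfotransferase of chondroitin chains, read between 32.4 and 52.5 in D30 − DMSO and at most 7.96 in D30 + DMSO cells, where no array was above background. It was at least 5.05-fold lower with DMSO (adjusted p = 1.43e-07 in limma) and at least 6.25-fold higher after removal (adjusted p = 4.31e-08). CSGALNACT1, which starts the chondroitin chain on its linker, had log2 fold changes of -2.72 (adjusted p = 1.18e-06) and 2.59 (adjusted p = 1.38e-06).

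The other 3, named after their values were seen, were CHST3, a chondroitin 6-O-sulfotransferase (log2 fold change -1.71 with DMSO and 2.02 after removal), DSE, the epimerase that turns chondroitin into dermatan sulfate (-1.44 and 1.46), and CHST11, a chondroitin 4-O-sulfotransferase (-1.10 and 1.05). With the normexp correction all 5 kept these directions, but only DSE was still called, in both comparisons. With quantile normalization 4 of the 5 were called in each comparison, CHST11 was not called after removal with the slide as a block, and CHST3 was not called with DMSO without replicate 1 or 2 of D30 + DMSO. The median log2 fold change of the 16 genes was -0.20 with DMSO, beside 0.04 over all genes tested.

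**Figure D5:**
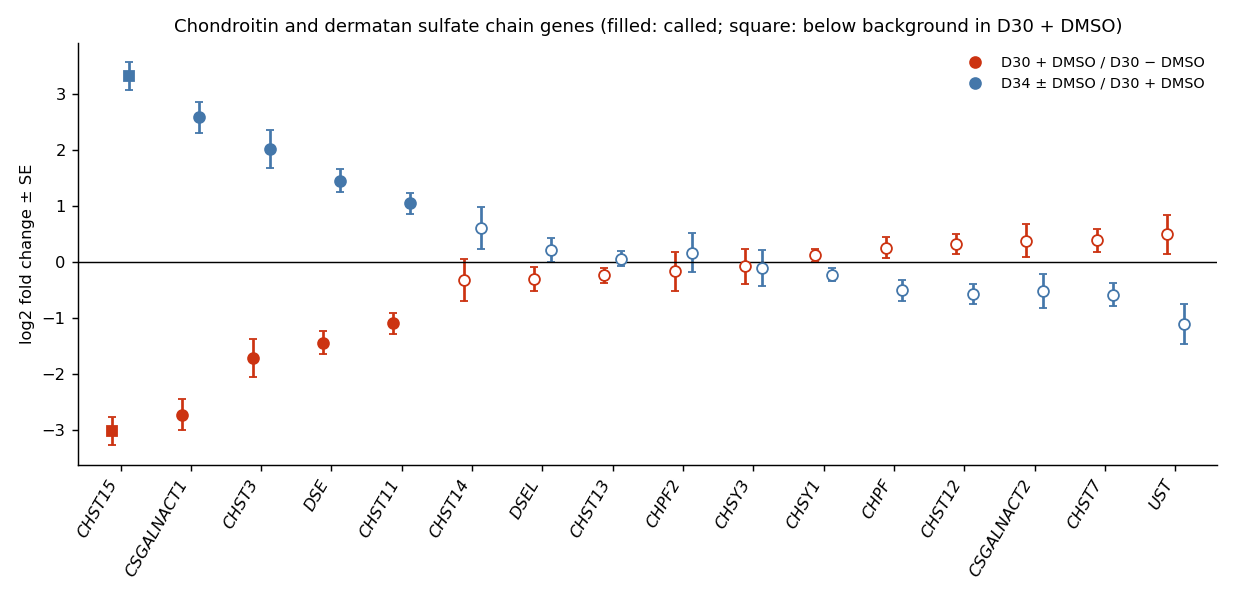
Log2 fold change ± SE of 16 chondroitin and dermatan sulfate chain genes for DMSO at day 30 (red) and for its removal (blue), sorted by the first. Filled symbols were called, and squares mark CHST15, whose D30 + DMSO arrays were all below background. The 5 genes on the left moved in opposite directions in these comparisons, and the other 11 were not called.

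Genes for other steps of chain making were counted in the same way. Over all genes tested 5.88% were called with DMSO, 7.05% after removal and at most 9.51% in any of the 6 comparisons. Of the 6 tested genes for the linker that joins chain and core protein, 0 were called by limma in the 6 comparisons, with 2 at an unadjusted p below 0.05 for DMSO and 3 for its removal. Of the 8 tested keratan sulfate genes, relevant to OMD, LUM and FMOD, CHST4 was called lower with DMSO (log2 fold change -1.55, adjusted p = 0.00149), a call lost without replicate 1, 2 or 3 of D30 − DMSO or replicate 3 of D30 + DMSO, and 0 were called after removal by limma, with 4 at an unadjusted p below 0.05.

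Among 20 tested core proteins of other proteoglycans, 2 were called higher and 3 lower with DMSO, and 5 higher and 1 lower after removal. Over all genes tested 5.88% were called with DMSO and 7.05% after removal. With the normexp correction 3 of the 5 calls with DMSO and 1 of the 6 after removal were made. Lower with DMSO were PRG4, the joint lubricant lubricin (log2 fold change -1.85), SRGN, the granule proteoglycan serglycin (-1.62), and, named after its value was seen, GPC6, a glypican (-1.13). Higher were GPC5, another glypican (1.18), and COL18A1, the basement membrane collagen from which endostatin is cut (1.17). PRG4 lost its call when any 1 of 14 arrays was left out and with quantile or normexp processing, COL18A1 when any 1 of 6 was, GPC5 when any 1 of 3 was and with normexp, and GPC6 without replicate 4 of D30 + DMSO. CSPG4, the membrane proteoglycan NG2, was above background on all D4 arrays but not on any D15, D30 − DMSO or D30 + DMSO array, read between 29.3 and 58.6 at D34 ± DMSO and was at least 5.85-fold higher there than in D30 + DMSO cells (adjusted p = 1.49e-06 in limma) and at least 5.00-fold higher than in D30 − DMSO cells (adjusted p = 0.000538), calls not made with the normexp correction.

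Around versican, HAPLN1, the link protein that fixes it to hyaluronan and the neighbour of VCAN on chromosome 5, was above background at D4 only and at least 9.98-fold lower at D15. It was called (adjusted p = 6.33e-07 in limma), but it passed the background filter only through its D4 arrays. That filter favours lower calls elsewhere, so the call is no separate support for the fall. Of the 4 tested proteases that cut versican or trim these proteins, ADAMTS9 was lower with DMSO (log2 fold change -2.32, adjusted p = 0.000133) and higher after removal (1.84, adjusted p = 0.00102). ADAMTS4 was at least 3.34-fold higher at D15 than at D4 (adjusted p = 4.09e-09). The HAPLN1 and ADAMTS4 calls were not made with the normexp correction.

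Of 12 tested collagen partners, growth factors and receptors of these proteins, 2 were called lower with DMSO, where 4.14% of all genes tested were. Both are ligands that decorin binds. TGFB2 had a log2 fold change of -2.61 (adjusted p = 3.05e-06 in limma) and TGFB3 -1.42 (adjusted p = 0.00251), and neither was called with the normexp correction. TGFB3 was also not called with quantile normalization, nor when any 1 of 6 arrays was left out. After removal 1 of the 12 was called, and 0 with the normexp correction, where 7.05% of all genes tested were called. From D4 to D15, where 3.82% of all genes tested were called lower, 4 of the 12 were, led by COL5A1 (-2.41) and COL1A1 (-1.93), the latter lost without replicate 1 or 4 of D4 or replicate 2, 3 or 4 of D15.

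Since these proteins are known from stellate cells and fibroblasts, markers of other cell types were read on the same arrays. The label calls the cells hepatic stem cells. Of 10 hepatocyte markers all 10 were tested and called higher at D15 than at D4, where 5.69% of all genes tested were called higher. Of 14 fibroblast and stellate markers 7 were tested. PDGFRB, COL1A2 and TCF21 were above background on 0 of 20 arrays, THY1 on 1, PDGFRA and HAND2 on 2 each and LRAT on 8. The 7 tested were COL1A1, COL3A1, DES, RGS5, ACTA2, TAGLN and POSTN.

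POSTN, which encodes periostin, was lower with DMSO and higher after removal, like DCN (log2 fold change -3.21, adjusted p = 5.75e-05, and 4.31 after removal, adjusted p = 1.58e-06 in limma), the first not called with normexp. TAGLN had -0.12 and 0.42, DES -0.21 and 0.13, and RGS5 -0.24 and -0.13. COL1A1 had -1.15 and 1.42, COL3A1 -2.79 and 1.00, and ACTA2 -0.54 and 0.89. None of these was called in either comparison. The summed level of the 7 tested fibroblast markers, in units of the 75th percentile of the array, was 6.53 to 9.36 in D30 − DMSO, 4.71 to 5.77 in D30 + DMSO and 7.89 to 13 in D34 ± DMSO cells, and 15.4 to 32.2 at D4. It was 6.59 to 7.65 at D15. Like DCN and LUM, the sum was lowest in D30 + DMSO cells. At D34 ± DMSO it lay above every D15 array, whereas DCN and LUM overlapped between these conditions. The part of these cells in the results on DCN and LUM was not tested. Fewer cells of a type and less RNA per cell cannot be told apart in these bulk samples.

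Of 8 endothelial markers 4 were tested, and TEK alone was called with DMSO, at least 2.81-fold lower (adjusted p = 1.39e-05 in limma) with no D30 + DMSO array above background and no call with a floor of 10 or normexp. The summed level of the 4 ranged from 0.70 to 2.20 over all arrays. Of 8 immune markers 5 were tested and 0 were called with DMSO by limma, with 3 at an unadjusted p below 0.05. Over all genes tested 5.88% were called with DMSO and 7.05% after removal. Of 8 biliary markers 6 were tested, of which SOX9 was called higher with DMSO, which was lost when any 1 of 5 arrays was left out and with normexp, and SPP1 lower. Of the biliary markers, EPCAM and CFTR were above background on 0 of 20 arrays. After removal TEK was at least 4.59-fold higher (adjusted p = 1.65e-06 in limma). The immune marker MARCO was called higher (log2 fold change 2.04, adjusted p = 0.00218). Neither call was made with normexp, and that of MARCO was lost when any 1 of 7 arrays was left out. SPP1 was called higher (2.24, adjusted p = 2.7e-06) and SOX9 lower (-2.07, adjusted p = 1.22e-05).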

How the data were processed

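RNA of HepaRG cells was measured on 20 one-color Agilent 8x60K arrays, 4 per condition, grouped by GEO's labels. Per the file headers the authors scanned and extracted the arrays with Feature Extraction (10.7.1.1, or 10.7.3.1 per the submitters' processing notes), and the deposited processed intensities are background-subtracted by that software, with a probe design on build hg19. The deposited log2 table of the authors' processed values was checked against log2 intensities scaled here to the 75th percentile, with a median absolute difference of 3.05e-07 over 21741 probes, and the scanner values were used.

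Here the spots of a probe were averaged without spots marked as outliers, arrays were scaled to a common 75th percentile, values were floored at 1 and log2 was taken. Of 42405 probes, 26538 passed the background filter, symbols came from RefSeq accessions, and the brightest probe stood for a gene. limma 3.58.1 (R 4.3.3) fitted 5 condition means over all 20 arrays, and adjusted p-values run over 22221 genes. Fitted fold changes rest on floored values. Where no array of a condition was above background, a fold marked as at least is given instead. For it, dimmer signals were raised to the lowest signal above background on each array. It is not a strict bound, because some brighter probes were not flagged as above background. Differences between genes were tested by exact permutation of arrays. The scripts were tested on simulated data. Arrays lay on 4 slides and in 2 scan sessions. Precision is limited by the 4 arrays per condition, and replicate arrays correlated with r of at least 0.955.

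Named besides the 9 genes are the 3 genes most correlated with each called gene, the genes next to the clusters, and from each gene list at most 2 called genes per direction and comparison. The genes and lists were chosen with earlier results of these data known. Alternatives covered normalization, background correction, filter, floor, threshold, probe and spot choice, slide or replicate as a block, the methods' t-test, and leaving out each array.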

Additional observations from a re-analysis of the deposited data

Results flagged for a closer look

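Of 38 groups of 4 arrays in which no value was at the floor, 5 held an array whose gap to its nearest neighbour was beyond Dixon's 95% critical share of the group's range, and chance alone gives about 1 in 20. Replicate 1 of D15 was the lowest for OMD (275, gap 0.937 of the range), and replicate 4 of D15 was the lowest for VCAN (53.9, gap 0.835). Replicate 4 of D30 + DMSO was the highest for BGN (31.5, gap 0.911), where its spots differed 6.43-fold. For the second ASPN probe replicate 4 of D4 was the lowest (3.03, gap 0.849) and replicate 1 of D15 the highest (33.7, gap 0.843).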

How the results depend on the processing

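The calls of OMD, DCN and LUM for DMSO against D30 − DMSO and against D15 held under every alternative in which the gene was tested. OMD was not tested with a filter requiring all 20 arrays above background. LUM from D4 to D15 and DCN after DMSO removal missed the threshold with the methods' own test in place of limma (adjusted p = 0.00555 and 0.00622). From D4 to D15 the number of genes called was 2 with only the arrays compared, at an adjusted p below 0.05 and with the lower of the spots (an alternative added after seeing the data), 0 with the methods' test, and 1 to 2 when an array was left out. From D30 − DMSO to D34 ± DMSO it was 1 at an adjusted p below 0.05. VCAN after DMSO removal passed with the lower of the spots (log2 fold change 1.19, adjusted p = 0.00481). Differences near 0 changed sign: DCN for D34 ± DMSO against D30 − DMSO was -0.00196 with normexp, -0.0126 with the slide as a block, -0.00935 with the lower of the spots and -0.264 to 0.285 without single arrays. DCN from D15 to D30 − DMSO was -0.0195 with the mean of both probes and -0.264 to 0.193 without single arrays, and OMD there -0.103 to 0.274. The causes were not tested. Samples of the same replicate number but different condition correlated in their deviations with a median r of 0.256 and a minimum of -0.309. For other numbers the median r was -0.157. For the same number on other slides it was 0.0649, against -0.167 for all pairs on other slides. The main fit did not use the numbers as pairs, and whether they pair the samples was not tested. Between arrays of the same slide the median r was 0.377. With a replicate block the numbers called were 1, 0, 3, 3, 3 and 0 in the 6 comparisons, as without it, and OMD with DMSO had a log2 fold change of -5.59 (adjusted p = 5.96e-08). Dim signal limits OMD in D30 + DMSO cells and the 5 genes not tested.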
